A study of Ogataea parapolymorpha DL-1 with 4 samples.

Results

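The met4 mutant was compared with the wild type of the yeast Ogataea parapolymorpha DL-1, which can grow on methanol, in the absence of an added sulfur source. Cells of both strains had grown in rich YPD broth from an OD600 of 0.1 to 0.3 and were sampled 2 h after a shift to B medium, which the labels call sulfur-limited. The wild type is labelled leu2 [LEU2] and the mutant leu2 met4::LEU2, so both groups share the leu2 background and a copy of LEU2, and 1 strain stands for each genotype. A second pair of libraries, from the same strains in B medium with 0.5 mM cysteine, is used beside the main pair. RNA sequencing gave 1 library for each of the 4 cultures. The deposited table gives each row (a gene or other transcript) an FPKM value, which counts fragments per length of transcript and per mapped fragments of the library. Rows entered the comparison with an average of 5 FPKM or more in the 4 libraries and a span of at least 600 bases, and 4495 of 5448 rows met both conditions. Shorter spans accounted for 897 of the rows left out and low means for the other 56.

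Met4 is known from budding yeast as a basic leucine zipper activator that is brought to DNA by Cbf1 and by Met31 or Met32. It switches on the genes that take up sulfate, activate it to phosphoadenosine phosphosulfate (PAPS), reduce it to sulfite and sulfide, and build methionine and S-adenosylmethionine. When sulfur is plentiful, the ubiquitin ligase SCF-Met30 holds Met4 inactive. Roles given below are those known from budding yeast unless another organism is named, and gene names are the closest matches in the deposited annotation. The comparison asks which transcripts the mutant has at another level than the wild type when no sulfur source is supplied.

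Differences are given as mutant minus wild type on the log2(FPKM + 1) scale, where 1 is a 2-fold difference and the change of low rows is understated. With 1 library per group there is no test, no error and no p-value behind any of them, and sequencing depth is unknown. The targeted gene comes first, as a check of the labels. Row zip1 (HPODL_03459, chromosome IV, 763543 to 764535), named after the Met4-like factor of fission yeast, had 485 FPKM in wild-type cells in B medium and 202 with cysteine, while the mutant had 0 in both media. The small row next to it, HPODL_05198, also stood at 0 in both mutant libraries, against 2343 and 2757 FPKM in wild-type cells, so the part of the one in the strain differences cannot be told apart from that of the other. The marker LEU2 had 403 and 396 FPKM in wild-type cells and 696 and 810.5 in the mutant.

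The scale of the libraries differed. FPKM summed over all rows came to 3217249 in the wild type and 1407393 in the mutant in B medium, with 71.4% and 44.2% of it in rows under 600 bases, while the sums over the compared rows were nearer, at 919902 and 784491. The median difference was -2.86 for rows under 300 bases, -0.68 for rows from 500 to under 600 bases just outside the limit, -0.52 for rows from 600 to under 700 bases just inside it, and between -0.17 and -0.04 in each class of 1000 bases or more. At the other limit, 14 rows with a mean from 4 to under 5 FPKM had a median of -0.23, and 20 rows from 5 to under 6 FPKM had one of -0.59. Scaling each library to the same sum over all rows (TPM) raised the median of the compared rows by 1.16, to 0.98. List medians between -1.16 and 0 therefore take the other sign under it. Median-of-ratios scaling raised that median by 0.17 and scaling to the same sum over the compared rows by 0.22. List values are therefore read against the median of all compared rows, which was -0.18 with an interquartile range of -0.82 to 0.41. List medians under TPM are likewise read against 0.98.

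Of the 4495 rows, 494 (11.0%) were at least 2-fold higher in the mutant in B medium and 910 (20.2%) at least 2-fold lower, together 31.2%, so 35.2% of the rows past 2-fold were higher. That share was 46.5% with median-of-ratios scaling (621 higher, 715 lower), 50.8% with equal sums over the compared rows (679 and 658), 47.5% with the length trend removed (626 and 692) and 92.6% under TPM (2204 and 176). At 4-fold or more, 121 rows were higher and 208 lower. With cysteine present, the same strains differed at 313 rows (6.96%) in the higher and 151 (3.36%) in the lower direction, 10.3% in all, with a median of -0.06. The rows that were lower in the mutant held the sulfate, sulfonate and methionine cycle genes and, in larger number, the genes of DNA replication and mitosis. Higher rows held much of the synthesis of the other amino acids. Counts of list members given below are read beside the shares of all rows, 11.0% higher and 20.2% lower.

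**Figure D1:**
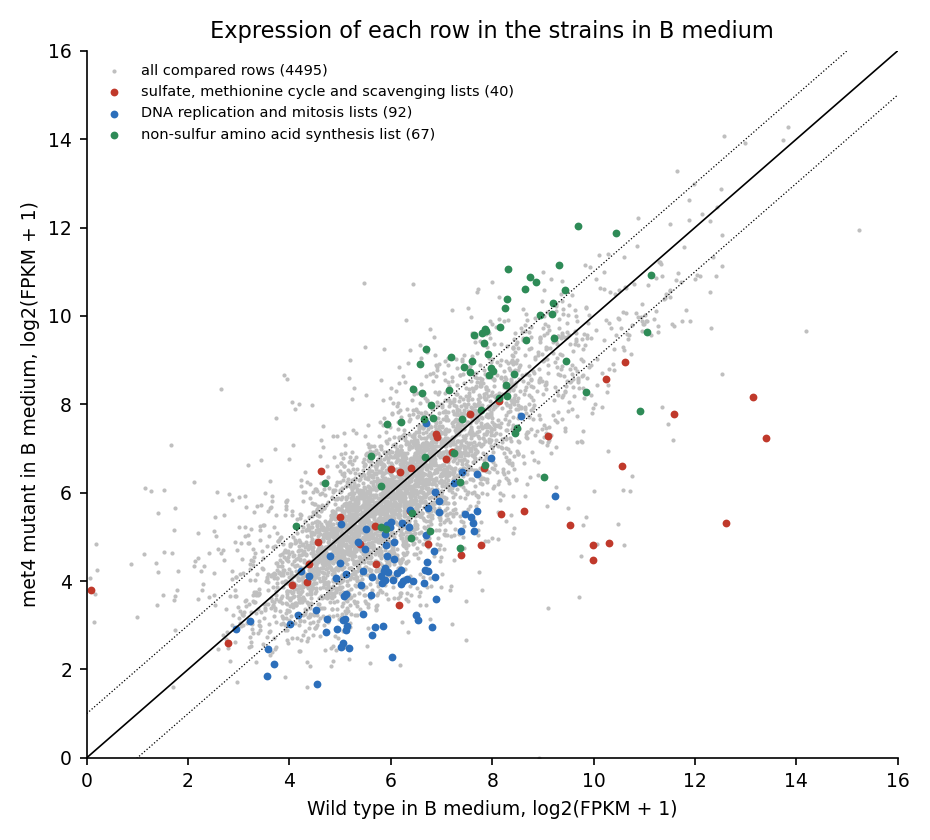
Each point is 1 compared row, with log2(FPKM + 1) in the wild type on the x axis and in the met4 mutant on the y axis, both in B medium. The solid line marks equal values and the dotted lines 2-fold. Red points (sulfate, methionine cycle and scavenging lists, 40 rows) reach down to -7.30 below the line (JLP1), blue points (DNA replication and mitosis lists, 92 rows) lie mostly below it, and green points (non-sulfur amino acid synthesis, 67 rows) lie mostly above it.

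The sulfate pathway was low in the mutant nearly along its length. Of 10 compared members, 7 were at least 2-fold lower and none higher, against 20.2% and 11.0% of all rows, and the list median was -2.24 (0.04 with cysteine). SUL1, the plasma membrane sulfate permease, had 1017 FPKM in wild-type cells and 27.1 in the mutant in B medium, and 11.6 and 11.8 with cysteine (-5.18 in B medium). Only the wild type in B medium had a high level. MET3, the ATP sulfurylase that activates sulfate, had 738 and 37.4 FPKM in B medium and 14.5 and 16.8 with cysteine (-4.26 in B medium). MET14, the kinase that makes PAPS, kept part of the wild-type level, with 548 and 156 FPKM in B medium beside 41.1 and 42.6 with cysteine (-1.81 in B medium). In the mutant too, then, SUL1, MET3 and MET14 were higher in B medium than with cysteine.

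The last reduction steps had another pattern. MET5 and MET10, the subunits of sulfite reductase, were lowest of the 4 libraries in the mutant in B medium. MET10 had 166 FPKM in wild-type cells and 23.2 in the mutant (-2.79), and 97.2 and 127 with cysteine. MET5 had 218 and 27.0 FPKM in B medium, and 42.3 and 44.8 with cysteine (-2.97 in B medium). MET1, which makes the siroheme cofactor of that enzyme, was also lowest there, at 44.7 FPKM against 288 in the wild type (-2.66) and 160.2 and 125 with cysteine. Not every step differed by 2-fold. MET16, the PAPS reductase, had 117 and 159 FPKM in B medium (0.43), met8, the other siroheme enzyme, 187 and 219 (0.22), and the putative sulfate transporter LPZ3C 15.6 and 14.1 (-0.14). HAL21, the phosphatase that clears the by-product of PAPS reduction, was the seventh low member at -1.27.

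In the methionine and S-adenosylmethionine cycle 5 of 8 compared members were at least 2-fold lower and none higher, with a median of -1.49 (0.28 with cysteine). The S-adenosylmethionine synthase sam1 had 3086 FPKM in wild-type cells and 218 in the mutant in B medium, beside 193 and 264 with cysteine (-3.82 in B medium), so 3 libraries were alike and the wild type in B medium stood far above them. Methionine synthase MET6 had 1210.2 and 378 FPKM in B medium (-1.68), and adenosylhomocysteinase SAH1 had 1579.9 and 498 (-1.66). MET13, which makes the methyl donor of MET6, differed by -1.90 and the folate enzyme MET7 by -1.32. The methylthioribose isomerase MRI1 (-0.33), the homocysteine methyltransferase mmuM (0.16) and MET12 (0.27) were within 2-fold.

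MET2 and met-2 differed in the other direction. MET2, which acetylates homoserine, had 108 FPKM in wild-type cells and 410.4 in the mutant in B medium, against 147 and 117 with cysteine (1.92 in B medium). Cystathionine beta-lyase met-2 had 381 and 797 FPKM in B medium and 511 and 269 with cysteine (1.06 in B medium). For both genes the mutant in B medium was the highest library. Of the 6 compared members of the cysteine and homocysteine list these were the higher ones, and 1 was lower, a row named cysB (HPODL_02013), cysteine synthase in Aspergillus, with 335 and 98.1 FPKM in B medium and 216 and 98.6 with cysteine (-1.76 in B medium). The second cysB row (HPODL_05065) differed by 0.28, the cysteine synthase OAS-TL by 0.41 and the probable cystathionine gamma-synthase MET7_SCHPO by 0.36.

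Several genes for organic sulfur were among the farthest apart. JLP1 (HPODL_00207, chromosome III, 83593 to 84789), the dioxygenase that frees sulfite from sulfonates, had 6263 FPKM in wild-type cells and 38.8 in the mutant in B medium, and 8.01 and 17.8 with cysteine (-7.30 in B medium). Of the rows named YP54_SCHPO, putative dioxygenases of the same kind, HPODL_01978 had 10802 and 149.9 FPKM in B medium and 6.23 and 15.9 with cysteine (-6.16 in B medium), and HPODL_05052 had 9095 and 286 in B medium and 1.21 and 22.5 with cysteine (-4.99 in B medium). The order was the same in each: the wild type in B medium far above all, then the mutant in B medium, then the mutant with cysteine and last the wild type with cysteine. These rows share names and may share reads, so their split is uncertain. The oligopeptide transporter OPT2 (HPODL_03723) had 1009 and 21.3 FPKM in B medium (-5.50), and arylsulfatase atsA, which releases sulfate from aromatic esters in bacteria, 397 and 46.8 (-3.06).

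Scavenging was not low as a whole. Over its 22 compared members the median was -0.41 (0.74 under TPM), with 8 rows lower and 2 higher. Higher in the mutant were another OPT2 row and a second JLP1 row. OPT2 (HPODL_00173) had 23.7 and 89.1 FPKM in B medium and 208 and 148 with cysteine (1.87 in B medium). JLP1 (HPODL_00875) had 0.0550 and 13.0 in B medium and 6.43 and 7.01 with cysteine (3.73 in B medium). Its mean of 6.62 FPKM passed the limit of 5 through the mutant in B medium, its highest library. In both rows the wild type in B medium was the lowest library. The genes for glutathione breakdown were within 2-fold, with differences of -0.06 for the dipeptidase DUG1, 0.32 for DUG2, 0.52 for DUG3 and 0.35 for gamma-glutamyltransferase ECM38. The same held for the methionine permease MUP3 (-0.44) and both cystinosin homologs (-0.79 for ctns and -0.28 for CTNS_DROME).

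Of the 6 compared sulfur regulators, 3 were lower and 1 was higher. The lower ones include zip1, the targeted gene, whose place there was set by the genotype. The F-box protein MET30 had 133 FPKM in wild-type cells and 48.1 in the mutant in B medium, and 153 and 186 with cysteine (-1.45 in B medium). The mutant in B medium was the lowest library. The DNA-binding partner MET32 had 139 and 53.7 FPKM in B medium and 17.2 and 34.3 with cysteine (-1.36 in B medium). The other members are parts of the ubiquitin ligase. The cullin CDC53 differed by 0.08, and the rows for the ubiquitin-conjugating enzyme CDC34 by 1.12 (HPODL_05139) and 0.31 (HPODL_04952).

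**Figure D2:**
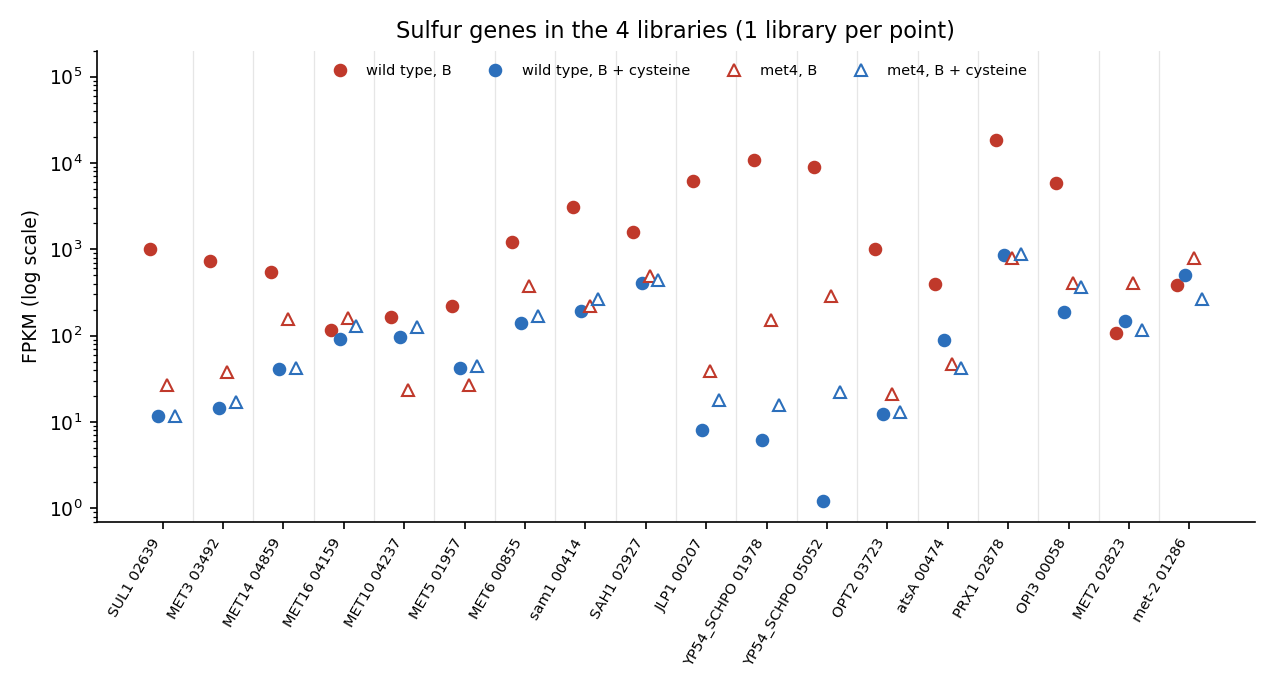
FPKM on a log scale of 18 genes in the 4 libraries, with wild type as filled circles, the met4 mutant as open triangles, B medium in red and B medium with cysteine in blue; the number after each name is the end of its HPODL identifier. For SUL1, MET3, sam1, JLP1, OPT2, PRX1 and OPI3 the red circle stands alone at the top, while for MET2 and met-2 the red triangle is highest and for MET5 and MET10 it is lowest.

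Some thiol and lipid genes outside the sulfur lists were nearly as far apart. Of 30 thiol redox rows 15 were compared and 15 left out. Over the compared ones the median was -0.03 (1.16 under TPM), with 3 rows lower and 3 higher. Of the mitochondrial peroxiredoxin rows PRX1, which remove peroxides with a cysteine, HPODL_02878 had 18571 FPKM in wild-type cells and 804 in the mutant in B medium, and 857 and 872 with cysteine (-4.53 in B medium). HPODL_03023 had 3015 and 145 in B medium, and 46.5 and 55.4 with cysteine (-4.37 in B medium). In both rows the wild type in B medium stood apart from the other 3 libraries. Thioredoxin reductase TRR1 was on the higher side, at 224 and 648 FPKM in B medium, though the level was 1278 and 807 with cysteine (1.53 in B medium). OPI3, which methylates phosphatidyl-N-methylethanolamine at the cost of S-adenosylmethionine, had 5889 and 410.0 FPKM in B medium and 189 and 364 with cysteine (-3.84 in B medium). The other compared members of the phospholipid list had a narrower range, from -1.93 for the phosphatidylserine decarboxylase PSD1 to 1.93 for the inositol transporter INT1.

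DNA replication and cell division genes made up the broadest low group. In cultures such as these, fewer dividing cells and less RNA per cell cannot be told apart. In the list for replication and mismatch repair, 34 of 45 compared members were at least 2-fold lower in the mutant and none higher, with a median of -1.89 (-0.78 under TPM). With cysteine, 10 were lower and 1 higher, against 3.36% and 6.96% of all rows, with a median of -0.54. In the mitosis and cell cycle list 34 of 47 were lower and none higher, with a median of -1.59 (-0.43 under TPM) and of -0.17 with cysteine. The wild type in B medium was the highest of the 4 libraries for 37 of the 45 and 46 of the 47 members, against 1793 of all 4495 rows. The list medians of the levels were 66.1 FPKM in wild-type cells and 17.0 in the mutant in B medium for replication, beside 27.0 and 19.7 with cysteine, and 57.4 and 16.3 for mitosis, beside 15.7 and 13.7. So the mutant in B medium was near both cysteine libraries and the wild type in B medium was above them.

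All 6 compared subunits of the replicative helicase, MCM2 to MCM7, were lower, by -3.26 to -2.21. MCM7 had 89.7 FPKM in wild-type cells and 8.45 in the mutant in B medium, and 9.42 and 3.80 with cysteine (-3.26 in B medium). The sliding clamp POL30 had 601 and 59.6 FPKM in B medium and 146 and 56.9 with cysteine (-3.31 in B medium). The primase subunit PRI2 had 118 and 11.0 in B medium (-3.31). For MCM7, POL30 and PRI2 the B medium libraries were thus about an order of magnitude apart. TOS4, a target of the G1/S factor SBF, differed from these in being high with cysteine as well, with 111 and 6.73 FPKM in B medium against 79.8 and 60.6 with cysteine (-3.85 in B medium). SWI4, the DNA-binding part of SBF, was low at 22.3 and 2.18 FPKM (-2.88), and its partner SWI6 differed by -1.93. Ribonucleotide reductase, which makes deoxyribonucleotides, was lower in both subunits, RNR1 by -2.15 and RNR2 by -2.05. Histone gene HTA2 was lower too, at 5009 and 1478 FPKM (-1.76). With cysteine, RNR1 (-1.09), RNR2 (-1.07), HTA2 (-1.08) and PRI2 (-1.37) were also at least 2-fold lower, while SWI4 (-0.35) and SWI6 (-0.15) were within 2-fold.

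In mitosis, the cyclin CLB2 had 197 FPKM in wild-type cells and 39.0 in the mutant in B medium, and 50.5 and 42.5 with cysteine (-2.31 in B medium). CLB4, another B-type cyclin, differed by -2.86, the kinetochore proteins SLK19, NUF2 and SPC24 by -2.78, -2.51 and -2.28, and the DASH subunit ask1 by -2.84. The members nearest to 0 were the cohesin loader SCC2 (-0.02), the checkpoint row mad2 (-0.24) and the kinesin KIP3 (-0.27).

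The synthesis of the other amino acids was the largest high group. Of 67 compared members 35 were at least 2-fold higher in the mutant in B medium and 11 lower, against 11.0% and 20.2% of all rows, with a median of 1.08. With cysteine the same list had a median of -0.50, with 2 members higher and 14 lower. The mutant in B medium was the highest of the 4 libraries for 42 of the 67, against 1042 of all 4495 rows. The list median was 230.0 FPKM in B medium and 223 with cysteine in the wild type, where single members differed between the media in both directions, and 413 and 156 in the mutant. ARO3 (HPODL_00199), the first step to aromatic amino acids, had 316 FPKM in wild-type cells and 2123 in the mutant in B medium, and 969.9 and 698 with cysteine (2.75 in B medium). HIS4 of histidine synthesis had 103 and 606 in B medium and 167 and 123 with cysteine (2.55 in B medium). LYS21 (HPODL_02806), homocitrate synthase of the lysine pathway, had 826 and 4203 in B medium and 2413 and 1143 with cysteine (2.35 in B medium). In all 3 genes the mutant in B medium was the highest library. Arginine (CPA1, 2.09), threonine (THR4, 2.14) and asparagine synthesis (ASN1, 1.96) were higher as well.

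Of the 11 lower members, GDH1 and GLT1 assimilate ammonium. GDH1, the glutamate dehydrogenase that fixes ammonium, had 1938 FPKM in wild-type cells and 229 in the mutant in B medium, and 1358 and 426 with cysteine (-3.08 in B medium), so it was lower in the mutant in both media. Glutamate synthase GLT1 had 163 and 26.0 in B medium and 39.7 and 12.7 with cysteine (-2.60 in B medium). Glutamine synthetase GLN1 was within 2-fold (-0.21). ARO9, an aromatic aminotransferase used in breakdown, differed by -2.67, and the branched-chain enzymes LEU1 and ILV5 by -1.57 and -1.43, although ILV2 (1.22), ILV6 (1.14) and BAT1 (1.91) of the same pathway were higher.

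Aminoacyl-tRNA synthetases and translation factors had no common direction. Of 34 compared aminoacyl-tRNA synthetases 4 were higher and 4 lower, against 11.0% and 20.2% of all rows (median -0.20, 0.98 under TPM). The higher ones load tRNA in the cytosol, such as DPS1 for aspartate, with 230.0 FPKM in wild-type cells and 811 in the mutant in B medium and 324 and 292 with cysteine (1.81 in B medium), and MES1 for methionine (1.52). The mitochondrial enzymes DIA4 (-1.51) and MSY1 (-1.40) were among the lower ones. Among the 40 compared translation factors 1 was higher, elongation factor TEF1, with 6074 and 17213 FPKM in B medium and 8361 and 7418 with cysteine, and 4 were lower.

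Proteasome genes had small differences. All but 1 of the 35 compared proteasome members were above 0, with a median of 0.58 and 6 at least 2-fold higher, and RPN4, the activator of proteasome genes, had 248 FPKM in wild-type cells and 728 in the mutant in B medium, with 1241 and 1067 with cysteine (1.55 in B medium). The proteasome median was -0.22 with cysteine. In the list of ubiquitin ligase adaptors and arrestins, which direct permeases to the vacuole, 5 of 10 were higher and none lower (median 0.99). BUL1 (HPODL_02275), an adaptor of the ligase RSP5, had 254 and 1739 FPKM in B medium and 167 and 117 with cysteine (2.77 in B medium), and a second BUL1 row (HPODL_03171) had 82.1 and 598 (2.85). RSP5 itself differed by 1.18.

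In iron-sulfur cluster assembly, 4 of 7 compared members were higher and 1 lower (median 1.18, 0.43 with spans of at least 1000 bases). NFS1, the cysteine desulfurase that supplies the sulfur, had 228 FPKM in wild-type cells and 659 in the mutant in B medium, with 236 and 300.1 with cysteine (1.52 in B medium). The cytosolic assembly factors NAR1 (1.59), NBP35 (1.36) and CFD1 (1.18) were higher, and the mitochondrial exporter ATM1 lower, with 86.1 and 27.7 FPKM in B medium (-1.60). Of 23 compared iron, copper and zinc transporters 9 were higher and none lower, with a median of 0.73. The siderophore transporter SIT1 (HPODL_04544) had 8.06 and 97.7 FPKM in B medium and 58.5 and 94.9 with cysteine (3.44 in B medium), and a second SIT1 row (HPODL_03545) had 72.8 and 209 (1.51). The copper transporter CTR1 was at 139 and 169 FPKM in B medium, far below its 12774 and 16794 with cysteine (0.28 in B medium) in both strains.

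**Figure D3:**
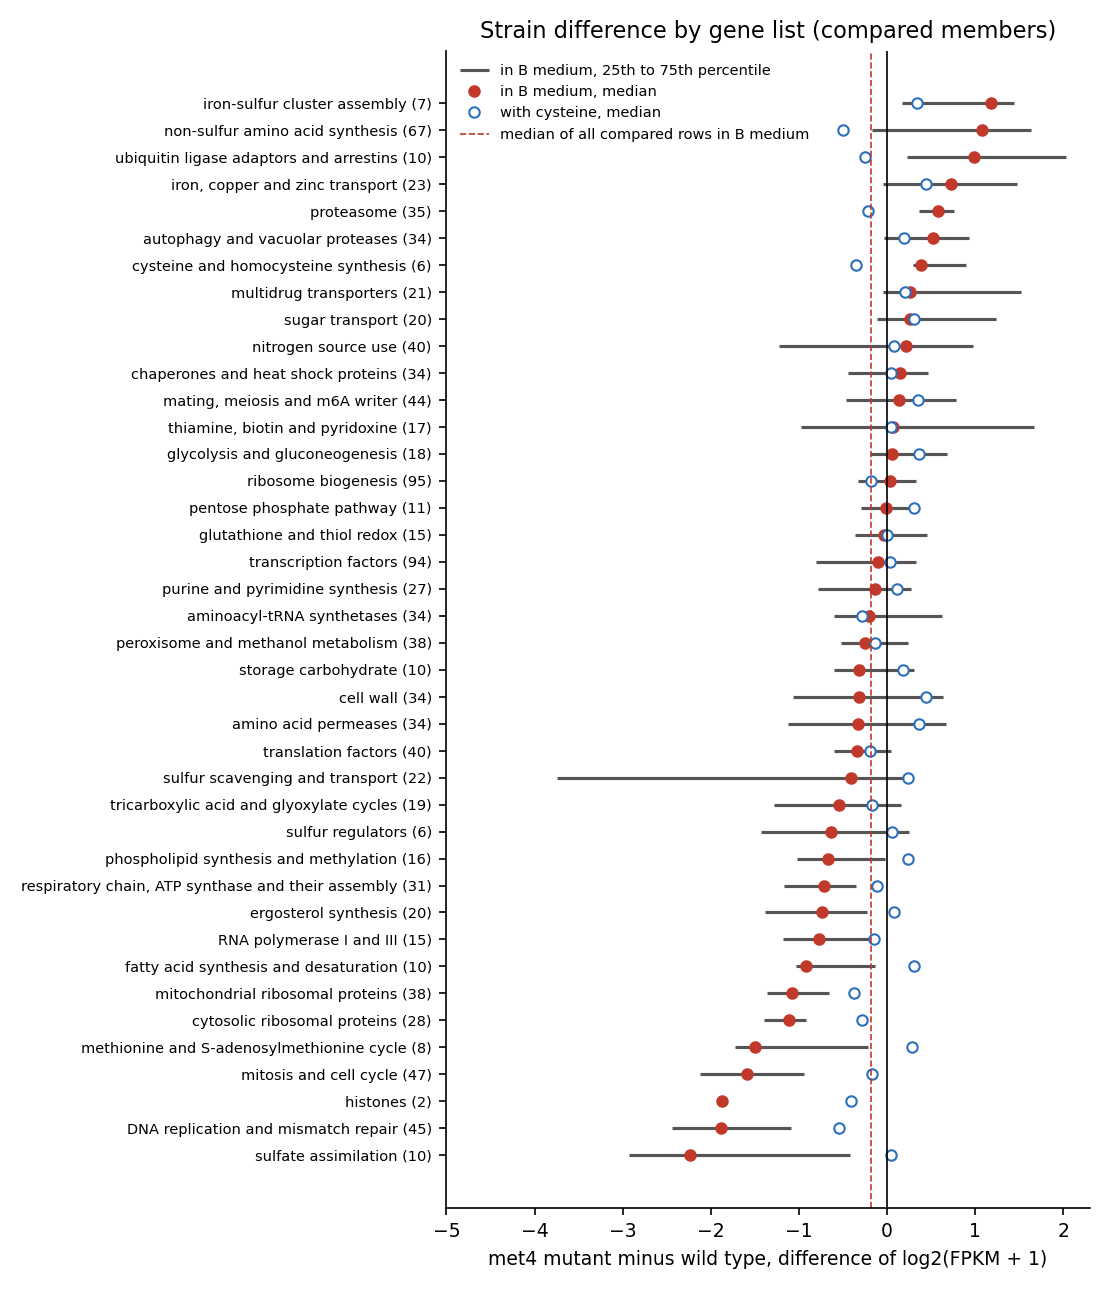
For each of 40 gene lists, with the number of compared members in brackets, the red point is the median strain difference in B medium, the bar its 25th to 75th percentile, and the open blue point the median with cysteine, all on the log2(FPKM + 1) scale; the dashed line is the median of all compared rows in B medium (-0.18). The sulfate, replication, histone and mitosis lists lie lowest and the iron-sulfur and amino acid lists highest, and the blue point of amino acid synthesis lies below 0.

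Nitrogen source genes were split. Of 40 compared members 10 were higher and 12 lower, against 11.0% and 20.2% of all rows, with a median of 0.21. The nitrate pathway, which budding yeast lacks, was low. The transporter crnA had 879 FPKM in wild-type cells and 37.5 in the mutant in B medium (-4.52), nitrate reductase YNR1 109 and 7.78 (-3.64) and nitrite reductase niiA 212 and 17.4 (-3.53). These 3 rows, which lie close together on chromosome I, were higher in the mutant with cysteine, by 2.13, 1.29 and 1.53. The ammonium transporter MEP2 had 2835 and 187 FPKM in B medium and 155 and 87.5 with cysteine (-3.91 in B medium). On the high side stood the uracil breakdown genes, known from Lachancea kluyveri, URC1, with 211 and 1555 FPKM in B medium (2.87), and URC4, with 146 and 1115 (2.93), and the probable urea transporter dur3-3 (3.16).

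Amino acid permeases were split likewise, with 7 of 34 compared members higher and 10 lower, against 11.0% and 20.2% of all rows (median -0.33, 0.84 under TPM). All 4 rows named DIP5, the permease for glutamate and aspartate, were at least 2-fold lower in B medium. HPODL_00008 among them had 179 FPKM in wild-type cells and 10.6 in the mutant in B medium, and 1.18 and 4.53 with cysteine (-3.95 in B medium). The arginine permease CAN1 had 4.79 and 42.8 (2.92), and the general permease row AGP2 24.2 and 180.4 (2.85), with 15.9 and 21.5 with cysteine.

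Among vitamin genes 6 of 17 compared members were higher and 4 lower, against 11.0% and 20.2% of all rows (median 0.07). The higher ones included the vitamin B6 pathway. Its synthase subunits pyroA and SNO1, which lie side by side on chromosome V, had 85.2 and 103 FPKM in wild-type cells and 1694 and 605 in the mutant in B medium, differences of 4.30 and 2.54. With cysteine pyroA had 49.8 and 117 FPKM, so the mutant in B medium was the high library. The transporter TPN1 differed by 2.45 and the putative pyridoxal kinase BUD16 by -2.91.

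The respiratory, tricarboxylic acid, ergosterol and fatty acid lists had medians below the -0.18 of all compared rows. Over all compared rows 20.2% were lower and 11.0% higher. Their list medians take the other sign under TPM scaling but stay below its median of all compared rows, 0.98. In the respiratory list 37 of 68 rows fell outside the comparison. Of the 31 compared members 11 were lower, among them 5 of the 6 complex I subunits, and none higher. The median was -0.72 as deposited, -0.43 with the length trend removed, -1.17 with no length limit and 0.46 under TPM. The complex I subunit nuo-40 had 351 FPKM in wild-type cells and 77.5 in the mutant in B medium and 38.7 and 68.6 with cysteine (-2.17 in B medium). In the tricarboxylic acid and glyoxylate list 6 of 19 were lower and 2 higher (median -0.54, 0.65 under TPM). Isocitrate dehydrogenase IDH2 had 887 and 166 FPKM in B medium (-2.41), whereas isocitrate lyase ICL1, of the glyoxylate cycle, had 9.85 and 106 (3.30) and the gluconeogenic enzyme PCK1 280.0 and 1369.6 (2.29). Ergosterol synthesis had 8 of 20 members lower and none higher (median -0.74, 0.42 under TPM), with ERG26 (-1.74), ERG2 (-1.59) and ERG6 (-1.54) the lowest, and fatty acid synthesis 3 of 10 (median -0.92, 0.26 under TPM).

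Ribosomal protein genes are mostly short, and 52 of the 80 cytosolic and 31 of the 69 mitochondrial ones fell outside the comparison. Of the 28 compared, 17 were lower and 1 higher, with a median of -1.11 as deposited, -0.69 with the length trend removed and 0.08 under TPM. Mitochondrial ribosomal proteins had 20 of 38 lower and none higher, with medians of -1.08, -0.75 and 0.09 in the same order. Ribosome biogenesis, whose genes are longer, had 5 of 95 higher and 1 lower and a median of 0.03. For 37 of the 38 mitochondrial members the mutant in B medium was the lowest of the 4 libraries, against 1172 of all 4495 rows. In peroxisome and methanol metabolism 2 of 38 were higher and 8 lower, against 11.0% and 20.2% of all rows (median -0.25, 0.91 under TPM). Formate dehydrogenase FMDH, the last step of methanol oxidation, had 2607 FPKM in wild-type cells and 244 in the mutant in B medium, and 5403 and 1384 with cysteine (-3.41 in B medium), while dihydroxyacetone synthase DAS, which fixes formaldehyde, had 11.5 and 50.1 (2.03).

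Among transport and surface genes, 7 of 21 compared multidrug transporters were higher and 2 lower (median 0.26), and 7 of 20 sugar transporters were higher and 3 lower (median 0.26). ATR1 (HPODL_01748), an aminotriazole exporter, had 29.8 FPKM in wild-type cells and 156 in the mutant in B medium, and 77.8 and 59.9 with cysteine (2.35 in B medium). Cell wall genes had 11 of 34 lower and 5 higher, against 20.2% and 11.0% of all rows. Their median was -0.32 (-0.12 with the length trend removed, 0.85 under TPM). Chitin synthase CHS1 had 125 and 27.0 FPKM in B medium and 23.4 and 16.4 with cysteine (-2.17 in B medium). Of 34 autophagy genes and vacuolar proteases 7 were higher and 4 lower (median 0.52). ATG13, which starts autophagosome formation, had 78.4 and 237 FPKM in B medium and 55.6 and 66.6 with cysteine (1.58 in B medium), while ATG25, of peroxisome turnover in Ogataea, had 47.1 and 3.45 in B medium and 3.16 and 1.38 with cysteine (-3.43 in B medium). ATG13 was thus highest in the mutant in B medium and ATG25 in the wild type there.

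Chaperones had 3 of 34 higher and 4 lower (median 0.15), with the mitochondrial chaperonin HSP60 at 135 and 41.0 FPKM in B medium and 269.7 and 304 with cysteine (-1.70 in B medium). Glycolysis had 2 of 18 higher and 2 lower (median 0.05) and the pentose phosphate pathway 1 and 1 of 11 (median -0.02, 1.17 under TPM). Storage carbohydrate had 1 of 10 lower and none higher (median -0.32, 0.85 under TPM). Purine and pyrimidine synthesis had 6 of 27 lower, ribonucleotide reductase included, and none higher, against 20.2% and 11.0% of all rows (median -0.14, 1.05 under TPM). RNA polymerases I and III had 4 of 15 lower and 2 higher (median -0.77, 0.39 under TPM), and the lowest was the polymerase I factor RRN7 (-1.99). Transcription factors had 10 of 94 higher and 19 lower, the targeted gene zip1 included (median -0.10, 1.05 under TPM). These counts are close to the shares of all rows, 11.0% and 20.2%. Mating, meiosis and m6A genes had 9 of 44 higher and 3 lower (median 0.14).

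Among the 15 lowest with a described product were SEO1 (HPODL_05071), a probable transporter, with 836 FPKM in wild-type cells and 11.5 in the mutant in B medium (-6.07), the putative aryl-alcohol dehydrogenase YI7E_SCHPO with 1543 and 27.3 (-5.77), and the dimethyl-sulfide monooxygenase dmoA with 1267 and 27.9 (-5.46). Among the 15 highest were RHD3, a cell wall protein first known from Candida, with 43.5 and 1709.5 (5.26), a probable KHG-aldolase (HPODL_05174) with 1.23 and 68.2 (4.95), the oxidoreductase AIFM2 with 14.4 and 382 (4.63), and the drug antiporter YHK8 with 78.3 and 955 (3.59). The level of AIFM2 with cysteine was 207 and 214 FPKM and that of YHK8 1569.7 and 2465, so for both it was the wild type in B medium that was low. GPR1 (HPODL_00537), a row described as a glyoxylate pathway regulator, had 44.1 and 628 FPKM in B medium beside 8008 and 7083 with cysteine (3.80 in B medium).

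The strain comparison with cysteine shares no library with the one in B medium. Of the rows past 2-fold, 98 were higher in the mutant in both media (19.8% of the 494 and 31.3% of the 313) and 70 lower in both (7.69% of the 910 and 46.4% of the 151). Over all rows, 6.96% were higher and 3.36% lower with cysteine, and 11.0% and 20.2% in B medium. Another 62 were lower in B medium and higher with cysteine (6.81% of the 910 and 19.8% of the 313), near the 6.96% of all rows that were higher with cysteine, and 20 were the reverse (4.05% of the 494 and 13.2% of the 151). Across the 4495 rows Pearson's r was 0.19 and Spearman's rho 0.17, given as a description across genes, which are not replicates. The higher rows in both media were led by RHD3, which had 28.6 FPKM in wild-type cells and 2247 in the mutant with cysteine (6.25), and by PHR2 (HPODL_01681), a cell wall glucanosyltransferase, with 17.1 and 257 FPKM in B medium (3.83) and 3.74 and 70.3 with cysteine (3.91). Lower in both were, besides zip1, FMDH, GDH1 and GLT1 above and genes for DNA precursors, the thymidylate kinase CDC8 (-2.01 in B medium, -2.11 with cysteine) and thymidylate synthase TMP1 (-2.26 and -1.55).

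The m6A writer genes, which in budding yeast methylate messenger RNA in meiosis, were also higher in both media. IME4 had 35.0 FPKM in wild-type cells and 387 in the mutant in B medium, and 19.1 and 950.1 with cysteine (3.43 in B medium). Its partner MUM2 had 20.7 and 253 FPKM in B medium, and 21.3 and 358 with cysteine (3.54 in B medium). KAR4, of mating and the same complex, had 35.7 and 509.5 in B medium, and 19.7 and 166 with cysteine (3.80 in B medium). In all 3 genes both mutant libraries lay above both wild-type libraries. Beside these, the mating-type row MATA1 (HPODL_04024), too short for the comparison, was listed at 0 in both wild-type libraries and had 37.0 and 38.4 FPKM in the mutant, while MATALPHA2 had 434 and 371 in B medium (-0.22). The part of the mating-type rows in the strain difference was not tested. The sources used here do not give the strand setting of the counting, so sense and antisense reads at IME4 cannot be told apart.

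**Figure D4:**
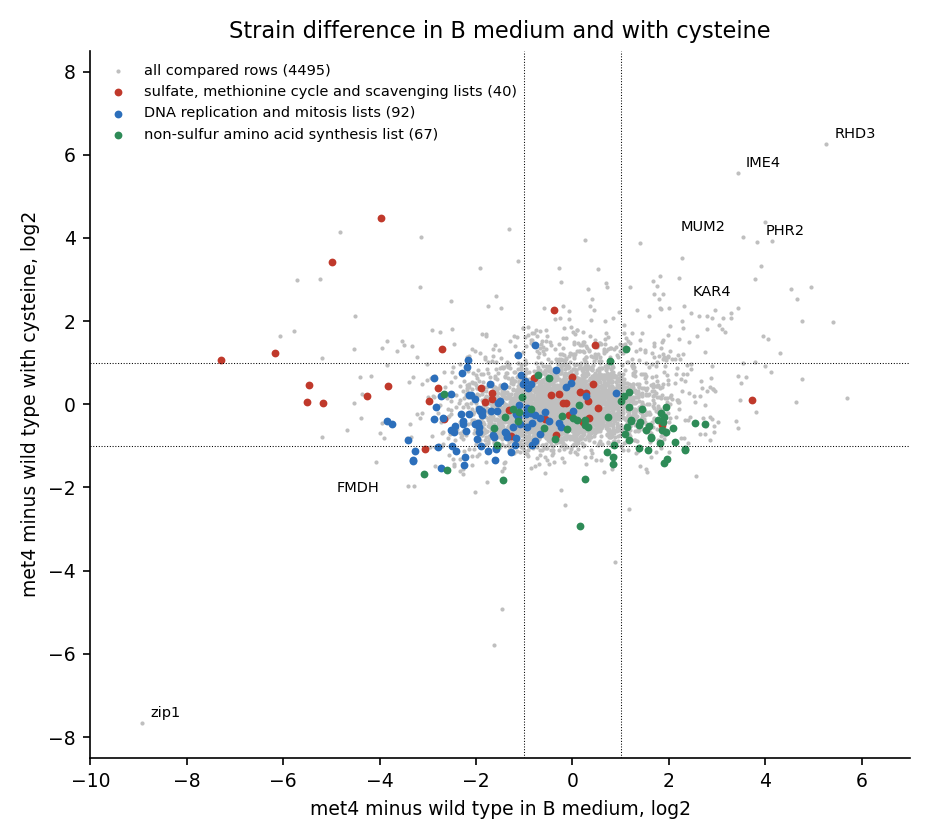
Each point is 1 compared row, with the strain difference in B medium on the x axis and with cysteine on the y axis, in log2(FPKM + 1) units; dotted lines mark 2-fold and colours are as in the plot of levels. Most coloured rows spread along the x axis, while RHD3, IME4, MUM2, PHR2 and KAR4 lie high on both axes; zip1, at the lower left, has 0 FPKM in the mutant in both media.

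Position on the chromosomes was not used to choose rows. The chromosome medians were all between -0.22 and -0.11. Within 50 kb of an outermost row, 89 of 355 rows were higher in the mutant in B medium (25.1%) against 405 of 4140 elsewhere (9.78%), while 84 and 826 rows were lower, the former 23.7% of their class. With cysteine the higher rows were 22.5% near the ends and 5.63% elsewhere. Median levels over the 4 libraries were 49.2 FPKM near the ends and 65.7 elsewhere, and median lengths 1389 and 1335 bases. The part of level in this difference was not tested.

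The ends differed from each other. At the right end of chromosome III, 15 of 25 rows were higher and 3 lower, with 10 neighbouring compared rows all past 2-fold from 1246873 to 1265017, among them phacA (0.146 FPKM in wild-type cells and 18.0 in the mutant in B medium, 4.05), kduD (4.70 and 33.9, 2.62) and the second JLP1 row. Mean levels of phacA and that JLP1 row were 6.21 and 6.62 FPKM, just above the limit of 5. Both were highest in the mutant in B medium, so they met the limit through the library in which they are called higher. At the left end of chromosome V, 11 of 27 were higher and 3 lower, with 7 of the higher ones in a row from 1105 to 13349. At the left end of chromosome IV, 10 of 27 were higher and none lower. At the right end of chromosome II none of 29 was higher in B medium and 15 were lower. Those 15 rows lie between 950928 and 990573 and include dmoA, the SEO1 rows HPODL_05071 and HPODL_05067 (-3.33), YP54_SCHPO rows HPODL_05052 and HPODL_05061 (-3.97), the transporter liz1 (-5.24) and the monooxygenase FMOGS-OX1, which had 547 FPKM in wild-type cells and 9.45 in the mutant in B medium (-5.71). In their midst the cysB row HPODL_05065 was within 2-fold, at 480.0 and 583 FPKM. With cysteine the direction at this end was the other one, with 13 of the 29 rows higher in the mutant and none lower.

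**Figure D5:**
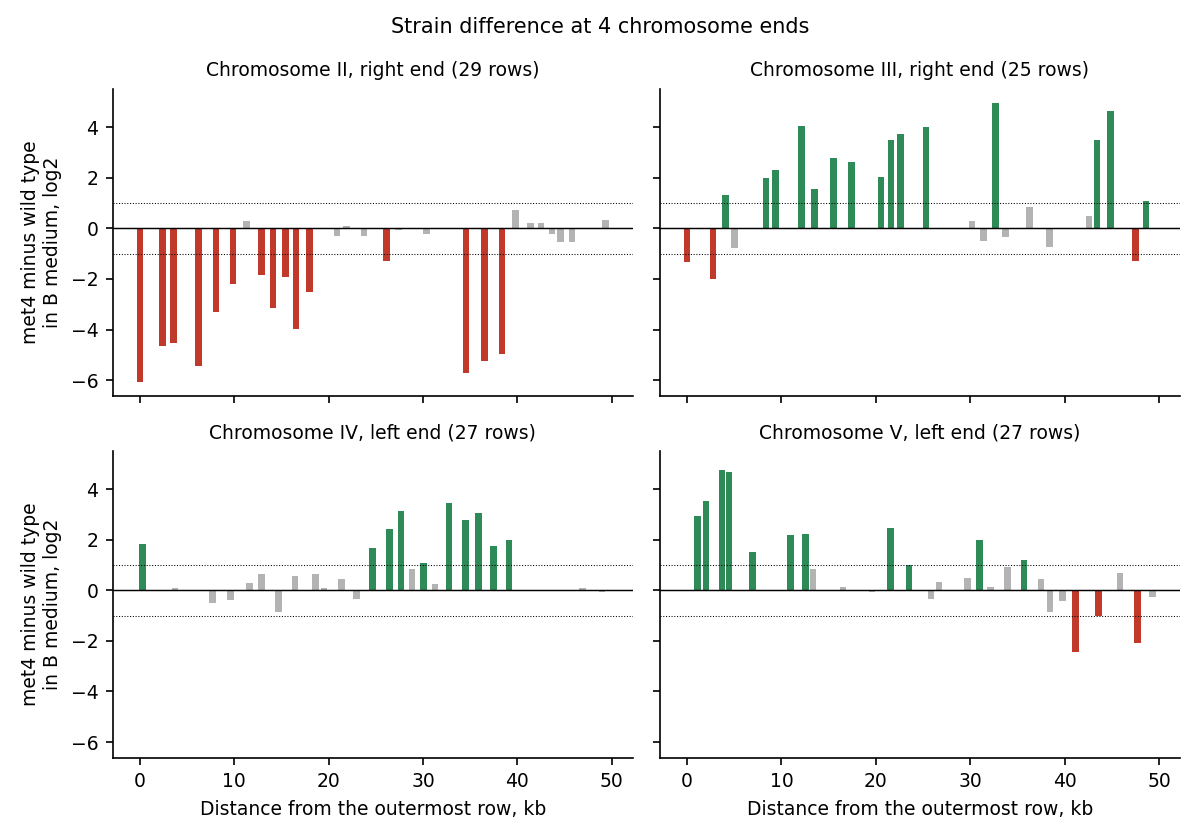
Strain difference in B medium (log2(FPKM + 1) units) of each compared row within 50 kb of 4 chromosome ends, against the distance from the outermost row in kb; green bars are at least 2-fold higher, red bars at least 2-fold lower, and dotted lines mark 2-fold. The right end of chromosome II has 15 red bars and no green one, and that of chromosome III has 15 green bars.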

How the data were processed

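RNA of 4 cultures of Ogataea parapolymorpha DL-1, extracted with hot phenol, was sequenced as 1 library each. The authors deposited 1 table of FPKM values per row, per the file headers, and per the submitters' processing notes TopHat, Cufflinks 2.1.1 and Cuffdiff were used, without their roles. The sources used here do not give the build, annotation, strand setting or Cuffdiff normalization. Coordinates are those of the deposited table, and 5372 of the 5448 rows had the same locus tag and position in the RefSeq annotation of assembly Hansenula_2. Sequencing depth cannot be recovered from FPKM values, since they showed no steps of whole reads, so no interval or floor is given. The authors' columns of called genes were not used.

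Rows averaging 5 FPKM or more in the 4 libraries, with a span of at least 600 bases, were compared by the difference of log2(FPKM + 1), with a pseudocount of 1 FPKM. The average includes the libraries compared, so a row could pass through the library in which it was high. A 2-fold difference or more was counted. The unit FPKM does not allow a count test, and with 1 library per group no test was run. Lists of 40 pathways were matched by gene name or product text, and 607 compared rows share a gene name with another row, so reads may be split between them. The length trend was removed with a running median of 100 rows on each side along length. Python 3.11.15, pandas 2.3.3, numpy 2.4.6 and matplotlib 3.10.9 were used, and the steps were tested on simulated data.

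Genes were named when they belonged to a sulfur list, were among the 15 highest or 15 lowest rows with a described product, were among the 4 farthest from 0 in another list, or were among the 10 highest or 10 lowest of those 2-fold apart in both media. The choice of the 15 passed over 13 undescribed higher and 2 undescribed lower rows, and that of the 10 passed over 7 and 2. zip1, its neighbours and LEU2 were named as a check of the labels. Chosen after seeing their values were URC4, kduD (HPODL_00879), dur3-3, CFD1, CTR1, MCM7, AO-I (HPODL_01218), AO-I (HPODL_01219), ILV6, NUF2, GAP1 (HPODL_01635), GAP1 (HPODL_01636), PHR2 (HPODL_01682), mad2, HIS4, LEU1, ILV2, GLN1, ASN1, LYS21 (HPODL_02806), ILV5, BAT1, THR4, CLB2, SCC2, PRI2, KIP3, SIT1 (HPODL_03545), URC1, HPODL_04023, MATA1 (HPODL_04024), SWI6, SPC24, AGP2 (HPODL_04823), MSY1, CPA1, SEO1 (HPODL_05067) and MATALPHA2. The comparison and the lists were chosen with earlier results of these data known. Of the genes these rules name, 1 is not reported here. Alternatives were pseudocounts of 0.1 and 5 FPKM, no filter on the mean or one of 10 FPKM, no length limit or one of 1000 bases, and 5 other scalings.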

Additional observations from a re-analysis of the deposited data

Results flagged for a closer look

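For 21 of the genes named, the mutant and wild type were at least 2-fold apart in opposite directions in the media, with no library at 0. The differences between media were not tested, since each rests on 1 library per strain and medium. In 19 of them the mutant was lower in B medium and higher with cysteine, a combination that over all compared rows was near the share of rows higher with cysteine. The strain difference with cysteine minus that in B medium was 8.97 for Y3136_ARATH (HPODL_01980), 8.45, 8.40 and 7.39 for the sulfonate dioxygenase rows YP54_SCHPO HPODL_05061, HPODL_05052 and HPODL_01978, and 8.35 for JLP1 (HPODL_00207), all on the log2 scale. It was 8.24 for the transporter liz1 (HPODL_05053), 7.72 and 4.73 for the SEO1 rows HPODL_05071 and HPODL_05067, 7.54 for YI7E_SCHPO (HPODL_01099), 5.85 for nahG and 4.04 for ywrD. In the nitrate pathway it was 6.65 for crnA, 5.06 for niiA and 4.93 for YNR1. The DIP5 permease rows HPODL_00008 and HPODL_03243 had 5.29 and 4.70, the glucose transporter row rco-3 had 4.10, the exporter ATM1 had 3.03 and hexokinase hxkA had 2.81. The wild type with cysteine had the lowest level for many of these rows, such as 0.273 FPKM for Y3136_ARATH against 21.5 in the mutant. The reverse pattern was seen for 2 amino acid genes, LYS21 (HPODL_02806) with -3.42 and asparagine synthetase ASN1 with -3.27.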

How the results depend on the processing

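TPM scaling gives each library the same sum over all rows. Under it, 2204 rows were higher and 176 lower in B medium, 806 higher in both media and 3 lower in both. Of the list medians past 2-fold as deposited, those of cytosolic (0.081) and mitochondrial ribosomal proteins (0.092) took the other sign. Smaller list medians also changed sign, such as those of sulfur scavenging (0.74) and the respiratory list (0.46). With spans of at least 1000 bases 606 rows were lower in B medium and 41 lower in both media, by construction from fewer rows. Without a length limit 266 were lower in both. Of 40 list medians, 21 moved across 2-fold under TPM besides the 2 of ribosomal proteins, and at most 3 under any other setting. Of 161 named differences, 45 moved across 2-fold under TPM, 2 with the length trend removed, 1 each with a pseudocount of 5 FPKM and with equal sums over the compared rows, and none under the other settings, where the row still passed. No paired analysis was possible because each group has 1 library and the labels give no replicate numbers, and for the same reason no library could be left out. The values carry no error and the depth is unknown, so small differences cannot be ranked.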

Other observations

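Neighbouring rows of the same gene name did not always differ alike. There were 25 such pairs among the compared rows, and in 4 of them 1 row was at least 2-fold higher in the mutant in B medium and the other at least 2-fold lower. The general amino acid permease GAP1 row HPODL_01635 had 44.4 FPKM in wild-type cells and 296 in the mutant (2.71), beside HPODL_01636 with 1232 and 309.8 (-1.99). The glucanosyltransferase PHR2 row HPODL_01681 stood at 3.83 and its neighbour HPODL_01682 at -1.64, with 555 and 178 FPKM. The amine oxidase AO-I rows HPODL_01218 and HPODL_01219 differed by 1.54 and -2.70, and the ribose-5-phosphate isomerase RKI1 rows HPODL_02541 and HPODL_02542 by -1.78 and 1.39. The sources used here do not say how reads were shared between such rows, so the split within a pair is uncertain. In 3 other pairs both rows were higher and in 0 both were lower.

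Beside MATA1 lies a second short row, HPODL_04023 (330 bases), which was listed at 0 FPKM in wild-type cells in B medium and at 0.434 with cysteine, and had 166 and 185 FPKM in the mutant. Next to IME4, the lipase row HPODL_02440 was also higher in the mutant, by 2.27 in B medium and 3.52 with cysteine. The 40 lists held 24.9% of the compared rows, 32.4% of the higher and 30.4% of the lower ones. Most of the rows past 2-fold therefore belong to none of the lists described.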
